A study of Mus musculus with 14 samples.

Results

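This account covers 9 genes of GABAergic interneurons, Gad1, Gad2, Slc32a1, Pvalb, Lhx6, Dlx1, Dlx2, Reln and Erbb4, in the hippocampus of neonatal mice. They were chosen by symbol from the 36118 genes of the count table, and all 9 were among the 16637 genes that passed the filter on low counts. Whole hippocampal RNA was sequenced from 14 mice at postnatal day 15, with 1 library per mouse. There were 4 wildtype mice kept in room air (WT-RA), 4 wildtype mice kept in hyperoxia (WT-O2), 3 gasdermin D knockout mice kept in room air (KO-RA) and 3 knockout mice kept in hyperoxia (KO-O2). Hyperoxia was 85% O2 from postnatal day 1 to 14. The labels give the breed as C57/BL6 for all mice. The study's methods give C57BL/6N for the knockout line, whose CRISPR/Cas9 allele lacks some bases of the fifth exon of Gsdmd in every cell, and wildtype and homozygous knockout mice came from matings of heterozygotes. The sex of the mice is not given in the sources used here.

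GABAergic interneurons are the inhibitory neurons of the hippocampus. They make GABA from glutamate with the decarboxylases encoded by Gad1 and Gad2 and load it into synaptic vesicles with the transporter encoded by Slc32a1. Dlx1 and Dlx2 are homeobox factors of their embryonic origin in the ganglionic eminences, Lhx6 is a LIM homeobox factor kept by cells from the medial eminence, Pvalb encodes the calcium buffer parvalbumin of fast-spiking cells, Reln encodes the secreted protein reelin, and Erbb4 encodes a neuregulin receptor. Several of these genes are also used outside the hippocampus, since GABA is the transmitter of striatal, septal and reticular thalamic neurons too.

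Library totals ran from 27272270 to 28257496 estimated counts. Levels are given as CPM, counts relative to the total of the library, scaled by edgeR's TMM method. Here "called" means that 3 limits from the study's methods were passed: the log2 fold change was 0.32 or more in size (the fold minimum), p was below 0.05, and q was below 0.1. The q is the p of edgeR's quasi-likelihood test adjusted by Benjamini-Hochberg over the 16637 genes. Gsdmd was checked first and lay at 1.47 to 1.80 CPM in WT-RA, 1.83 to 2.23 in WT-O2, 0.817 to 1.47 in KO-RA and 1.32 to 1.5 in KO-O2, so transcripts of the gene were counted in every knockout library. Averaged over both exposures it was called lower in KO, with a log2 fold change of -0.52 ± 0.138 (SE, q = 0.0160). The study reports that the protein was undetectable in knockout brains and that quantitative RT-PCR found no measurable transcript there. The WT mice carry numbers from 398 to 408 and the KO mice from 489 to 496, and genotype and this range of numbers cannot be told apart. Mouse GSD408 is hyperoxia by its title and room air by its treatment field, and was used as WT-O2. The Y-linked gene Ddx3y reached 1 CPM in 1 of 4 WT-RA, 3 of 4 WT-O2, 1 of 3 KO-RA and 1 of 3 KO-O2 libraries.

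The DNA before the start of 4 of the genes is shown because these genes are the ones whose genotype values are described most closely here, with Reln higher and Slc32a1, Gad2 and Pvalb lower in KO. Each line holds the 250 bases upstream of the start of the RefSeq gene in GRCm38.p6, read 5′ to 3′ on the strand of the gene. Capitals mark the GC box GGGCGG.
Slc32a1, chr2:158610508-158610757, plus strand: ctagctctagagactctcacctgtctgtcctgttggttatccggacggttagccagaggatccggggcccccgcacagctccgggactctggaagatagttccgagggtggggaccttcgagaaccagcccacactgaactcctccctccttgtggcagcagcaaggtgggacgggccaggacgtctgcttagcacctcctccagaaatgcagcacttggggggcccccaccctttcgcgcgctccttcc
Gad2, chr2:22622077-22622326, plus strand: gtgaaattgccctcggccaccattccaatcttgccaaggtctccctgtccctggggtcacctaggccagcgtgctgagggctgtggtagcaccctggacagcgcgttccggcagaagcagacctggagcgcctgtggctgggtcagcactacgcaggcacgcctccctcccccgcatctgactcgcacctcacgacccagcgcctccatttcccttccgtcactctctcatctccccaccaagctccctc
Pvalb, chr15:78206401-78206650, minus strand: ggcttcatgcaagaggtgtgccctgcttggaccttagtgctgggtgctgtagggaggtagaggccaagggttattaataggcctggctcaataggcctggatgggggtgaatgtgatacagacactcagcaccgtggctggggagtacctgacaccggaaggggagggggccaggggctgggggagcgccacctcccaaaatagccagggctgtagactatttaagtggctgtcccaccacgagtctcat
Reln, chr5:22344706-22344955, minus strand: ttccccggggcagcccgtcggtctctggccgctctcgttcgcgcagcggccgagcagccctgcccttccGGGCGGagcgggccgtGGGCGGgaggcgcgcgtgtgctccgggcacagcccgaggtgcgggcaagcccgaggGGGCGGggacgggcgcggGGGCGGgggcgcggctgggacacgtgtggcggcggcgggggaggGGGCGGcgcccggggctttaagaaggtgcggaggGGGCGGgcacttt
The Reln window was 80% G and C, against 62.4% in Slc32a1, 64% in Gad2, 58.4% in Pvalb and a median of 52.4% over 32851 windows of the same length. It held 6 GC boxes, at 181, 165, 109, 91, 47 and 13 bases before the start, while the windows of Slc32a1, Gad2 and Pvalb held none. Among the windows not shown, that of Dlx2, also called lower in KO, held a GC box at 119 bases before the start and that of Gad1 one at 8 bases. Lhx6, which was not called, held one at 146 bases in its first window and one at 48 bases in its second. A GC box on either strand occurred in 32.7% of all windows. TAATTA, the core of many homeodomain sites, occurred in 4.84% of them and TGACGTCA, the cyclic AMP response element, in 1.55%, and neither was found in these 4 windows. The table has 2 windows for Pvalb, of which the first is shown, and the other was 71.6% G and C and held no GC box. A match of letters is a description of the sequence only.

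Slc32a1 RNA was lower in KO than in WT mice in both exposures. In WT-RA it was at 112, 112, 89.4 and 136 CPM in mice GSD398, GSD399, GSD400 and GSD401, and in WT-O2 at 99.7, 140.2, 125 and 136 CPM in GSD404, GSD405, GSD406 and GSD408. In KO-RA it was at 73.7, 77.5 and 74.8 CPM in GSD489, GSD490 and GSD496, and in KO-O2 at 79.97, 79.4 and 80.5 CPM in GSD491, GSD494 and GSD495. The 6 KO mice lay close together and all below the lowest WT mouse, GSD400. Against WT, the log2 fold change was -0.58 ± 0.123 (SE, 95% interval -0.84 to -0.31, q = 0.00861) in room air and -0.65 ± 0.123 (-0.91 to -0.38, q = 0.00625) in hyperoxia. Averaged over both exposures it was -0.61 ± 0.0872 (q = 0.000226), a 1.53-fold lower level. Groups whose values did not overlap in the lower direction were found for 3.45% of the genes tested in that comparison of 8 WT with 6 KO mice. In RNA of whole tissue, fewer cells of a type and less RNA per cell cannot be told apart.

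Gad2 RNA was also lower in KO mice. It was at 237, 237, 175 and 284 CPM in the WT-RA mice, in the same order, and at 247, 310, 258 and 254 CPM in the WT-O2 mice. The KO-RA mice had 177, 163 and 184 CPM and the KO-O2 mice 178, 198 and 196 CPM. In hyperoxia the groups did not overlap, and in room air GSD400 alone among the WT mice lay within the KO range. Against WT the log2 fold change was -0.42 ± 0.125 (SE, q = 0.0471) in room air, -0.49 ± 0.125 (q = 0.0334) in hyperoxia and -0.45 ± 0.0884 (95% interval -0.64 to -0.26, q = 0.00235) over both exposures. The call in room air was lost without GSD401 (-0.31, q = 0.124), KO-RA mouse GSD489 (q = 0.125) or KO-RA mouse GSD490, and that in hyperoxia without GSD491 or GSD495.

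Gad1, which encodes the other decarboxylase, had values in the same direction without passing the test. The WT-RA mice had 258, 203, 133 and 259 CPM and the WT-O2 mice 210, 234, 257 and 269.8 CPM. The KO-RA mice had 183, 173 and 179 CPM and the KO-O2 mice 189.7, 196 and 198 CPM. The WT mouse GSD400 lay below all KO mice, and the other 7 WT mice lay above them. In log2 fold change Gad1 was at -0.26 ± 0.167 (SE, q = 0.391) in room air, -0.32 ± 0.167 (q = 0.330) in hyperoxia and -0.29 ± 0.118 (95% interval -0.54 to -0.04, q = 0.109) over both. Without GSD400 the values became -0.42 (q = 0.0116) in room air and -0.37 (q = 0.00133) over both exposures, both of them called. Without GSD398 they became -0.15 (q = 0.677) and -0.23 (q = 0.193), neither of them called. In the comparison over both exposures, 19 of 20 alternative fits left Gad1 not called.

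**Figure D1:**
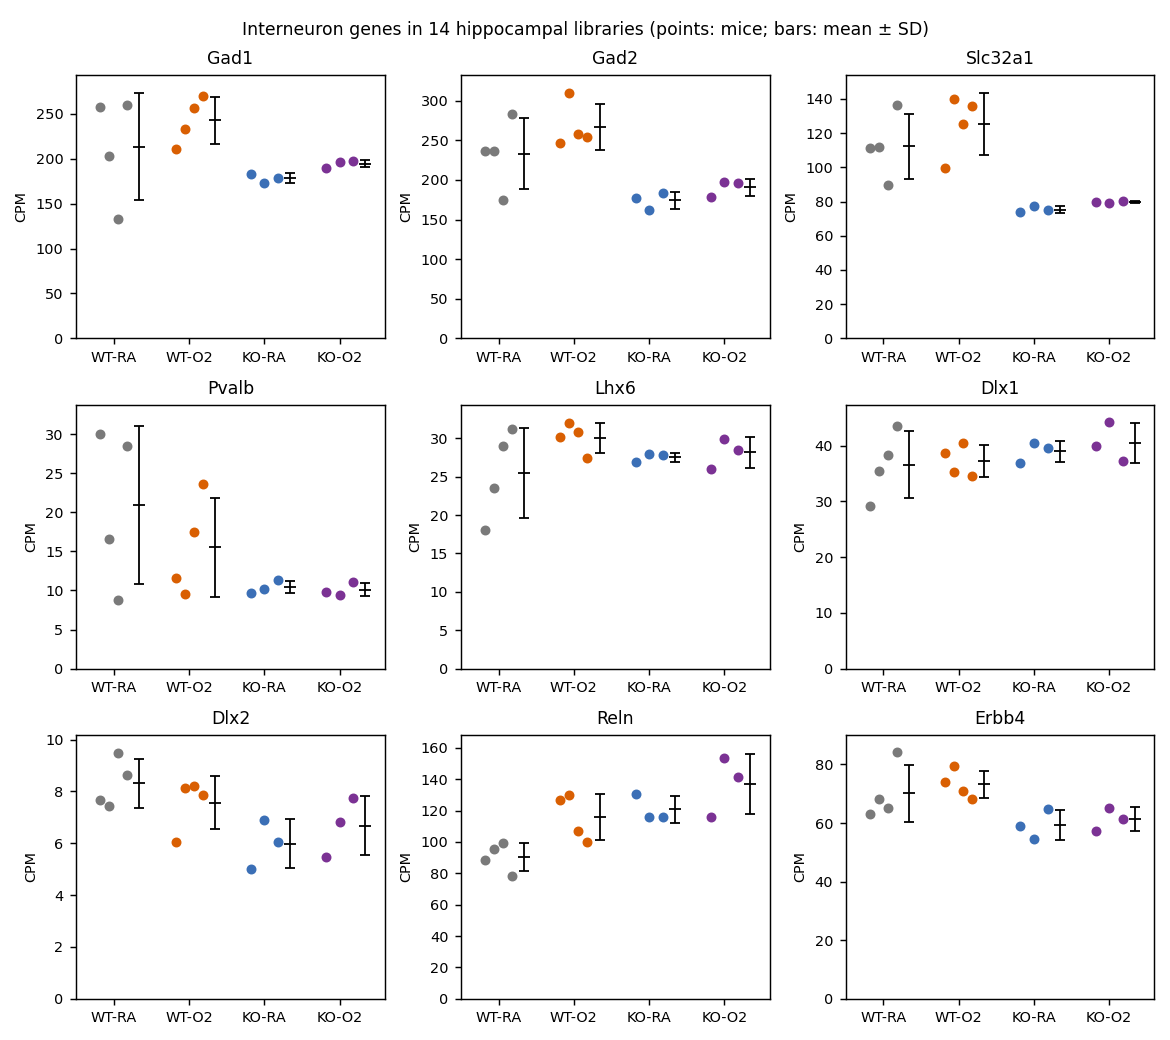
CPM of the 9 interneuron genes in each mouse (points) with the mean and SD of each group (bars), 1 panel per gene and vertical axes from 0. For Slc32a1 all KO mice lie at or under 80.5 CPM and all WT mice at or above 89.4 CPM, while the Pvalb values of the WT mice spread from 8.76 to 30.0 CPM.

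Pvalb RNA was lower in KO mice on average, with WT mice that differed widely among themselves. The WT-RA mice had 30.0, 16.6, 8.76 and 28.4 CPM and the WT-O2 mice 11.6, 9.50, 17.5 and 23.6 CPM. The KO-RA mice had 9.73, 10.2 and 11.3 CPM and the KO-O2 mice 9.84, 9.43 and 11.1 CPM. The KO mice fell in a narrow band beside the lowest WT mice, and the groups overlapped in each exposure. The log2 fold change was -1.004 ± 0.357 (SE, 95% interval -1.77 to -0.24, q = 0.0944) in room air and -0.81 ± 0.253 (-1.35 to -0.27, q = 0.0371) over both exposures, both called. In hyperoxia alone it was -0.62 ± 0.358 (q = 0.390) and was not called. The room air call was lost in 6 of the 7 fits that left out a mouse of either group, the exception being GSD400 (q = 0.0101). Without GSD398, the highest of the WT mice, it was -0.77 (q = 0.216). Pvalb lies on chromosome 15 within 5 Mb of Gsdmd in the GRCm38 annotation, with 85 protein-coding genes between them. Of the 169 tested genes in the window of 5 Mb on each side of Gsdmd, 19 (11.2%) were called over both exposures, against 12% of all genes. The knockout allele and the alleles linked to it cannot be told apart at this gene.

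Of the 3 homeobox factors, Dlx2 was lower in KO mice and the values of Lhx6 and Dlx1 did not pass the test. Dlx2 was at 7.67, 7.43, 9.47 and 8.64 CPM in WT-RA and at 5.01, 6.89 and 6.05 CPM in KO-RA, and these groups did not overlap. Its log2 fold change in room air was -0.47 ± 0.153 (SE, q = 0.0668), and this call was lost without GSD400, GSD401, GSD489 or GSD496. In hyperoxia WT mice had 6.05, 8.14, 8.21 and 7.85 CPM and KO mice 5.48, 6.82 and 7.73 CPM, which overlapped, with a log2 fold change of -0.18 ± 0.152 (q = 0.593). Over both exposures it was -0.33 ± 0.108 (q = 0.0488), just past the fold minimum, and this call was lost in 13 of 20 alternative fits.

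Lhx6 was at 18.1 to 31.2 CPM in WT-RA, 27.4 to 32.0 in WT-O2, 26.9 to 27.9 in KO-RA and 26.1 to 30.0 in KO-O2. Its log2 fold change over both exposures was 0.01 (95% interval -0.20 to 0.21, q = 0.963), an interval that holds neither the Slc32a1 nor the Gad2 value. Dlx1 was at 29.1 to 43.5 CPM in WT-RA, 34.5 to 40.5 in WT-O2, 36.8 to 40.5 in KO-RA and 37.3 to 44.3 in KO-O2, with a log2 fold change of 0.11 (-0.06 to 0.27, q = 0.394). Dlx1 and Dlx2 are neighbours on chromosome 2 with 0 annotated genes between them, and in room air Dlx2 was called lower while the Dlx1 value was 0.09 (-0.14 to 0.32, q = 0.688). The difference between these genes was not tested. Exons of Dlx1 overlap those of the antisense gene Dlx1as, exons of Lhx6 those of Gm27953 on the same strand, and exons of Slc32a1 and Reln those of the antisense genes Gm14205 and Gm10475. The strand used in counting is not stated, so reads of the antisense pairs could have been shared. For Lhx6 and Gm27953 this could happen with any strand setting. Dlx1as was not among the genes with counts.

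Reln was the only 1 of the 9 genes called higher in KO mice. The WT-RA mice had 88.7, 95.3, 99.3 and 78.6 CPM and the WT-O2 mice 127, 130.2, 107 and 99.6 CPM. The KO-RA mice had 131, 116 and 116 CPM and the KO-O2 mice 116, 154 and 142 CPM. In room air all KO mice lay above all WT mice, and in hyperoxia the groups overlapped. The log2 fold change was 0.42 ± 0.112 (SE, 95% interval 0.18 to 0.66, q = 0.0287) in room air, 0.24 ± 0.111 (0.01 to 0.48, q = 0.254) in hyperoxia and 0.33 ± 0.0789 (q = 0.00884) over both. The value over both exposures was 1.26-fold, close to the fold minimum, and 8 of 20 alternative fits put it under the minimum, with q at most 0.0292 in all 20. The call in room air was lost without GSD489 (0.36, q = 0.132).

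Erbb4 was at 62.95 to 84.3 CPM in WT-RA, 68.3 to 79.4 in WT-O2, 54.6 to 64.8 in KO-RA and 57.3 to 65.3 in KO-O2. In hyperoxia the KO mice all lay below the WT mice. The log2 fold change over both exposures was -0.25 ± 0.0677 (SE, 95% interval -0.39 to -0.10, q = 0.0200). With a level 1.19-fold lower it did not reach the fold minimum and was not called.

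In KO-RA against WT-RA, 4 of the 9 genes were called lower (Slc32a1, Gad2, Pvalb and Dlx2) and 1 higher (Reln), where 6.7% of all genes tested were called lower and 3.75% higher. Values that did not overlap were found for Slc32a1 and Dlx2 in the lower direction, with 11% of all genes, and for Reln in the higher direction, with 8.62%. In KO-O2 against WT-O2, Slc32a1 and Gad2 were called lower, 2 of 9 genes, and 4.35% of all genes were called lower. Slc32a1, Gad2, Gad1 and Erbb4, 4 of 9 genes, had lower values that did not overlap, with 10.5% of all genes. Over both exposures 4 genes were called lower and 1 higher, against 7.94% and 4.11% of all genes, and the median log2 fold change of the 9 was -0.29 against -0.01 for all genes tested. This average is made from the same libraries as the separate comparisons and is no further evidence for them. Leaving out 1 mouse changed the counts to between 1 and 5 in room air, with 1 gene left without GSD489, 2 without GSD401 and 3 without GSD490 or GSD496, and to between 3 and 5 over both exposures. In hyperoxia 1 gene was left without GSD491 or GSD495.

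**Figure D2:**
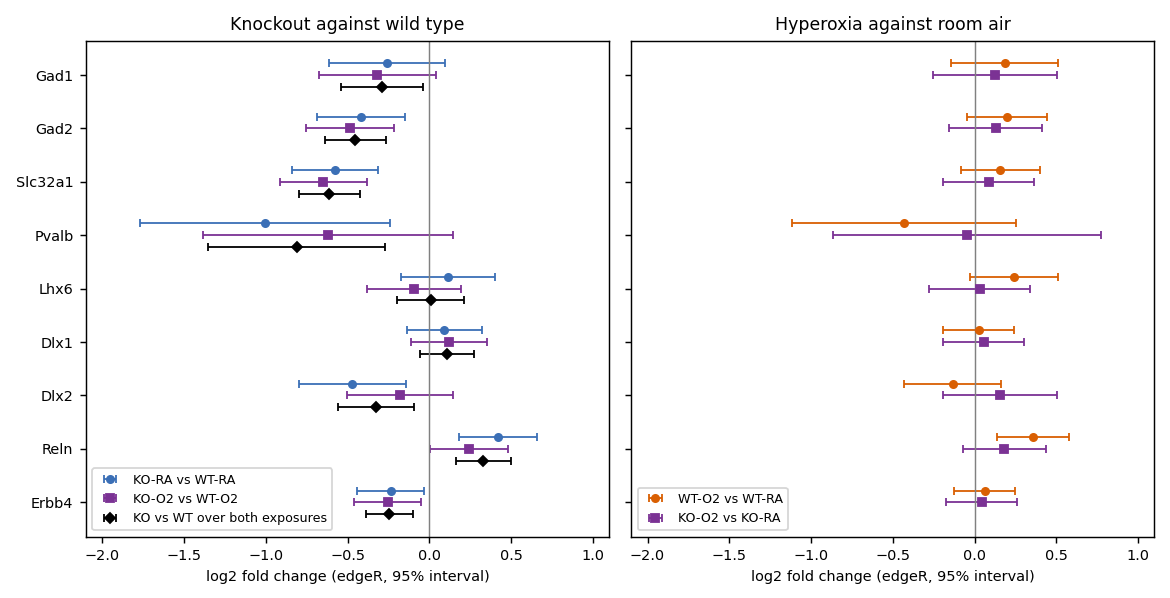
Log2 fold changes of the 9 genes with 95% intervals from edgeR, for KO against WT (left) and hyperoxia against room air (right), with a vertical line at 0. The Slc32a1 and Gad2 intervals lie below 0 in all 3 genotype comparisons, the Lhx6 and Dlx1 intervals span 0 in every comparison, and Reln in WT is the 1 gene whose interval for hyperoxia lies above 0.

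Hyperoxia gave no call among the 9 genes in either genotype by edgeR without a covariate. In WT-O2 against WT-RA, 0 of 9 genes were called by edgeR, with 0.643% of all genes called, and 1 of 9, Reln, had an unadjusted p below 0.05, with 12.2% of all genes. DESeq2 called 1, also Reln (q = 0.0531), and so did edgeR with a term for Y-linked expression (0.47, q = 0.0517), a fit added after seeing the data because 1 of 4 WT-RA and 3 of 4 WT-O2 mice had Ddx3y. The 4 WT-O2 mice had more Reln RNA than the 4 WT-RA mice without overlap, as 2.95% of all genes did in the higher direction. The gap was narrow, from 99.3 CPM in WT-RA mouse GSD400 to 99.6 CPM in GSD408, the mouse that is room air by its treatment field. The log2 fold change of Reln was 0.36 ± 0.104 (SE, 95% interval 0.13 to 0.58, q = 0.172 by edgeR). In all other genes the interval included 0, with values from -0.43 (-1.11 to 0.25) for Pvalb to 0.24 (-0.03 to 0.51) for Lhx6. In KO-O2 against KO-RA, 0 of 9 genes were called by edgeR or DESeq2, with 0.012% of all genes called. An unadjusted p below 0.05 was found for 0 of the 9 and for 4.86% of all genes, and Reln was at 0.18 (-0.07 to 0.44). Slc32a1 and Gad1 were higher in KO-O2 without overlap, by 0.09 (-0.19 to 0.37) and 0.13 (-0.25 to 0.51), and 5.52% of all genes showed such a separation.

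Whether the response to hyperoxia differed between genotypes was tested as the interaction. The test called 0 of 9 genes and 0% of all genes by edgeR, with 4.05% of all genes at an unadjusted p below 0.05 and 0 of the 9 among them. DESeq2 called 0 of the 9 as well. The interaction of Reln was -0.17 (95% interval -0.51 to 0.16) and that of Pvalb 0.39 (-0.68 to 1.45) on the log2 scale. These intervals include differences between the genotypes as large as the Reln response in WT and the Pvalb genotype value. For Slc32a1 the interaction was -0.07 (-0.44 to 0.30), an interval with both bounds smaller in size than its genotype value of -0.61, and for Gad2 it was -0.07 (-0.44 to 0.31) beside -0.45. The genotype and exposure comparisons share their groups.

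Further gene lists were counted over both exposures, where 12% of all genes were called. Of 7 further genes of GABA uptake and breakdown, 2 were called lower and 1 higher, with a median of -0.03, and 1 call in all was left without GSD401, GSD406, GSD408 or GSD494. Slc6a11, a GABA transporter of astrocytes, was lower by a log2 value of -0.42 ± 0.110 (SE, q = 0.0155), and Abat, the GABA transaminase, was at -0.33 ± 0.0694 (q = 0.00387). Slc6a12, a GABA and betaine transporter, was higher at 0.78 ± 0.297 (q = 0.0878). Its levels were low and overlapped, at 0.594 to 2.53 CPM in KO and 0.561 to 1.86 CPM in WT.

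The called genes of the medial eminence list were all lower in KO, while those of the caudal eminence list lay in both directions. Of 20 further genes of cells from the medial eminence, 7 were called lower and 0 higher, with a median of -0.21. The 5 with the largest values were Chodl (-1.66), the tachykinin receptor gene Tacr1 (-1.30), the tachykinin precursor gene Tac1 (-1.28), the homeobox factor Nkx2-1 (-1.23) and Vwc2 (-1.01), all on the log2 scale. Of these, Chodl and Nkx2-1 had low levels. Chodl was at 0.446 to 1.06 CPM in KO and 1.31 to 3.15 CPM in WT. Nkx2-1 was at 0.297 to 0.895 CPM in KO and 0.636 to 2.47 CPM in WT, which overlapped. Tac1 is also a transcript of striatal projection neurons, and Nkx2-1 is also used in the basal forebrain. Sst, the somatostatin gene of the other large class from this eminence, was at 0.11 (95% interval -0.08 to 0.30, q = 0.456), and was named after its values were seen. Of 18 genes of cells from the caudal eminence, 5 were called higher and 5 lower, with a median of 0.05. Penk, the enkephalin precursor gene and also a striatal transcript, was at -2.93 ± 0.228 (SE), Lamp5 at -1.249 and Nr2f2 at -0.85, and Ndnf was higher at 0.75 and Tnfaip8l3 at 0.67. Vip, likewise named after its values were seen, was at 0.21 (-0.04 to 0.47, q = 0.263).

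Of 12 other transcription factors of GABAergic development, 8 were called lower and 1 higher, with a median of -0.77. The 5 with the largest values among those with a mean of at least 1 CPM were Isl1 (-3.85 ± 0.395), Six3 (-3.71 ± 0.455), Pbx3 (-0.95), Meis2 (-0.91) and Sp9 (-0.78). Of these, Isl1, Six3 and Meis2 are known for striatal development. Isl1 was low, at 0 to 0.391 CPM in KO and 1.48 to 4.98 CPM in WT. Six3 was at 0.186 to 1.73 CPM in KO and 3.43 to 23.8 CPM in WT. The Dlx genes of the second cluster, given after their values were seen as the closest relatives of Dlx1 and Dlx2, were Dlx5 at -0.42 (q = 0.00341) and Dlx6 at -0.75 (q = 0.00452).

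The calls among reelin and ErbB partners were near the share of all genes. Of 12 reelin receptors and transducers, 1 was called. It was Dab1, an adaptor of the reelin pathway, which was higher at 0.46 ± 0.0519 (SE, q = 3.68e-05). The reelin receptor genes Vldlr and Lrp8 were at -0.11 (q = 0.126) and 0.02 (q = 0.865). Reln is also made by Cajal-Retzius cells, the early neurons of the hippocampal surface. Of 12 markers of those cells, 3 were called higher and 1 lower, with a median of 0.06: Ndnf, Trp73 at 0.61 ± 0.122 and Cxcr4 at 0.46 ± 0.103 were higher and Zic1 was at -0.97 ± 0.346. In WT-O2 against WT-RA 0 of these 12 were called by edgeR and 1 by DESeq2. Over all genes edgeR called 0.643% and DESeq2 called 304 genes. An unadjusted p below 0.05 by edgeR was found for 3 of the 12 and for 12.2% of all genes. Of the 12, 10 were positive, with a median of 0.38. Of the 16637 genes tested, 8039 were positive, with a median of -0.006. The part of the Cajal-Retzius markers in the Reln values was not tested. Of 12 neuregulins and ErbB partners, 2 were called lower, Erbb3 at -1.48 ± 0.263 and Nrg1 at -0.72 ± 0.1004, where Erbb3 is also a gene of the oligodendrocyte lineage. Of 8 genes of the perineuronal net, the matrix around Pvalb cells, Hapln1 at 0.60 ± 0.0791 and Acan at 0.53 ± 0.124 were higher and Hapln4 at -0.58 ± 0.206 was lower.

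**Figure D3:**
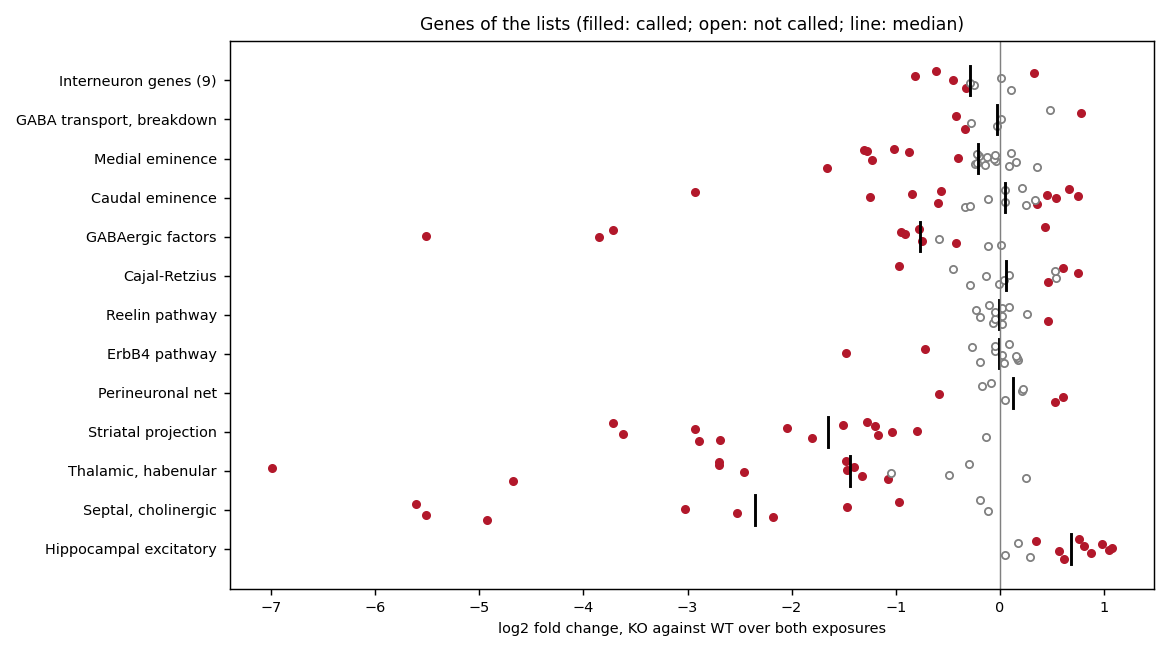
Log2 fold change of KO against WT over both exposures for each gene of the lists (filled points called, open points not called, vertical bars the list medians). The medians of the striatal, thalamic and septal lists are -1.65, -1.44 and -2.35, that of the 9 interneuron genes is -0.29, and that of the hippocampal excitatory list is 0.69.

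Markers of neighbouring brain regions moved with genotype beside the interneuron genes. Of 14 striatal projection neuron markers, 13 were called lower in KO and 0 higher, with a median of -1.65, and their summed level was 538 to 1098 CPM in WT and 268 to 368 CPM in KO. Of 14 thalamic and habenular markers, 10 were called lower (median -1.44), with sums of 214 to 1105 CPM in WT and 200.5 to 222 CPM in KO. Of 10 septal and cholinergic markers, 8 were called lower (median -2.35), with sums of 45.6 to 188 CPM in WT and 46.1 to 72.1 CPM in KO. With at least 10 counts required in every library, a filter that removes genes near 0 in KO, 2 septal markers were called. Some genes were counted in 2 lists, so the list counts are not separate observations. Penk, Tac1 and Six3 of the lists above are also among the striatal markers, and Lhx8 and Zic1 among the septal markers. Ndnf and Calb2 are in both the caudal eminence and the Cajal-Retzius lists.

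Some defining markers of the septum and thalamus were near 0 in KO. The cholinergic enzyme gene Chat was at 0.0367 to 0.0716 CPM in KO and 0.440 to 3.44 CPM in WT, and Lhx8 was at 0 in 3 of 6 KO libraries. The thalamic factor Shox2 was at 0.0350 to 0.179 CPM in KO and 0.177 to 27.02 CPM in WT, and Gbx2 was at 0 in KO-RA mouse GSD496. The dopamine receptor gene Drd1 was at 1.91 to 5.73 CPM in KO and 13.6 to 26.1 CPM in WT. Of 12 hippocampal excitatory markers, 9 were called higher in KO and 0 lower (median 0.69), with sums of 4776 to 5786 CPM in WT and 6726 to 8756 CPM in KO, among them Prox1 of the dentate gyrus at 0.98 ± 0.233 (SE). Of 8 oligodendrocyte markers, 7 were called lower (median -1.16), of 8 astrocyte markers 2 higher (0.20), of 8 choroid plexus and ependymal markers 1 lower (-0.02), a call lost without GSD408, GSD489, GSD494 or GSD496, and of 8 microglia markers 0 by edgeR or DESeq2 (0.11). An unadjusted p below 0.05 was found for 3 of the 8 microglia markers and for 30.1% of all genes.

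The WT mouse GSD400 had the thalamic and septal sums of the KO mice, 214 and 45.6 CPM, and a striatal sum of 777 CPM within the WT range. It also had the lowest Gad1, Gad2, Slc32a1 and Pvalb values of the 8 WT mice. GSD398, with the highest thalamic sum of 1105 CPM, had the highest Pvalb and the lowest Lhx6 value of the WT mice. The choroid plexus and ependymal sums set GSD489 and GSD494 apart, at 150 and 229 CPM against 2252 to 4136 CPM in the other 4 KO mice and 1305 to 3340 CPM in the WT mice, and GSD489 is the mouse without which 1 of the 5 calls in room air was left. The part of these markers in the values of the interneuron genes was not tested.

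**Figure D4:**
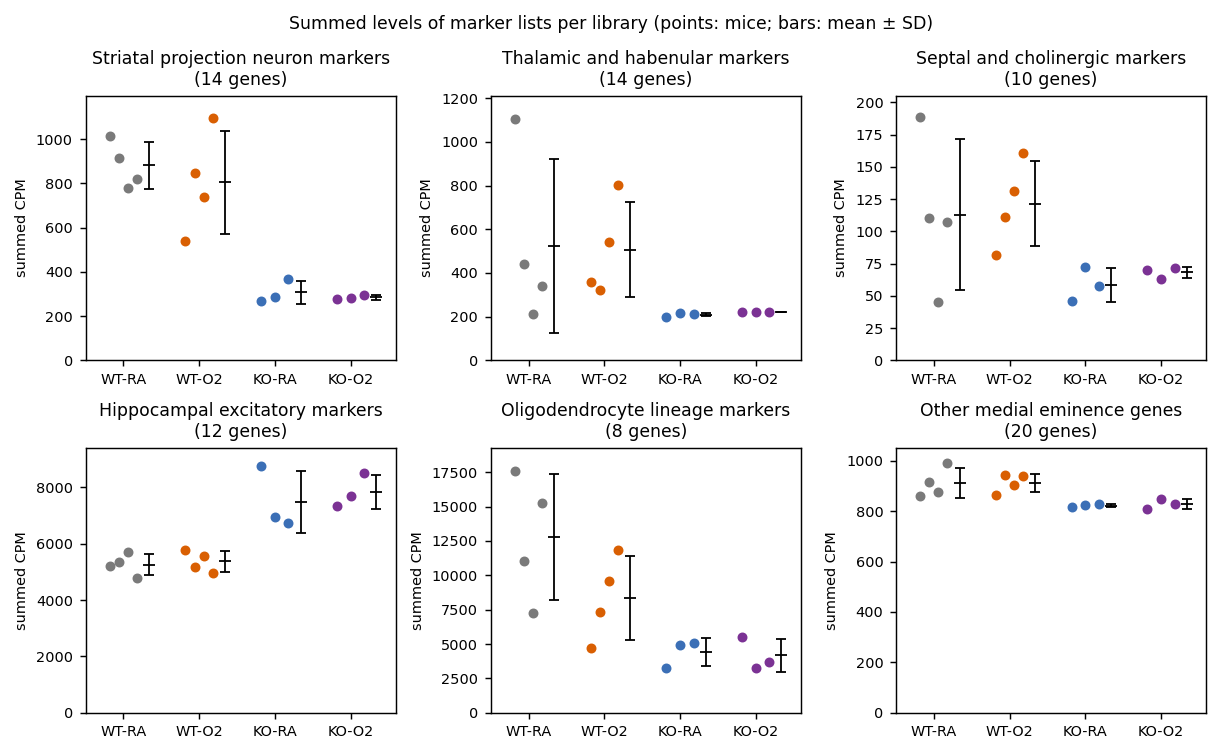
Summed CPM of marker lists in each mouse (points) with the mean and SD of each group (bars), 1 panel per list and vertical axes from 0. The striatal sums of the KO mice (268 to 368 CPM) lie below those of the WT mice (538 to 1098 CPM), and the sums of the 20 medial eminence genes lie at 810 to 850.0 CPM in KO and 862 to 992 CPM in WT.

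Within groups the 9 genes did not vary together as a block. For each gene the log2 CPM of each mouse was taken as its deviation from the mean of its group, and Pearson's r was computed over the 14 libraries, as a description. Of the 36 pairs 23 were positive, and the median r was 0.08. Gad1 and Pvalb had the highest r, 0.91, which was 0.84 without GSD400. Lhx6 and Dlx1 followed with 0.85, or 0.86 without that mouse, and Gad2 and Slc32a1 with 0.79, or 0.63 without it. Gad1 and Gad2 had 0.75, and 0.25 without GSD400. Pvalb and Reln had the lowest r, -0.69, and -0.71 without it. Spearman's rho, from ranks, was 0.86 for Gad1 and Pvalb, 0.71 for Lhx6 and Dlx1 and 0.44 for Gad2 and Slc32a1. For Gad1 and Gad2 rho was 0.45, and for Pvalb and Reln -0.76. Because the libraries share depth and tissue composition, an r does not separate the gene from the tissue sampled.

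Over all tested genes with a mean of at least 1 CPM, the 3 with the highest r to each member were found in the same way. They were Btbd16, P2rx7 and B3galt5 for Gad1, with r = 0.97 for each, and Sdsl, Rsrc1 and Fgf1 for Pvalb, with r from 0.93 to 0.95. Ap1s2, Gpr165 and Nr2f2 came closest to Gad2, with r from 0.95 to 0.97, and B630019K06Rik, Ublcp1 and Hdac11 to Slc32a1, with r from 0.94 to 0.97. For Reln they were Pcdhb5, Srgap3 and Ash1l (0.94 to 0.95), and for Erbb4 they included Acvr2a and Tacr3 (0.94 and 0.89). For the homeobox factors they were 1700003E16Rik, Negr1 and Fxyd6 with Lhx6 (0.95 to 0.96), Aplf, Ankrd26 and Efnb2 with Dlx1 (0.94 to 0.97), and Dock2, Gstt2 and Csgalnact1 with Dlx2 (0.85 to 0.92). These are the highest values of a search over all such genes and were given no test. Spearman's rho of these pairs ranged from 0.65 for Csgalnact1 with Dlx2 to 0.98 for Pcdhb5 with Reln.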

How the data were processed

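The labels state that polyA RNA of the hippocampus was sequenced with paired-end reads, and name kallisto, DESeq2 and the mouse build GRCm39. For the 14 libraries the authors deposited estimated counts by gene. Per the study's methods, transcripts were quantified with Kallisto and collapsed by gene through tximport. Versions and the strand setting are not given in the sources used here. The estimated counts were rounded. Genes were filtered with edgeR's filterByExpr (16637 of 36118 kept), scaled by TMM and fitted in R 4.3.3 with edgeR 4.0.16, with 1 coefficient per group over all 14 libraries and no covariate. Quasi-likelihood F-tests were two-sided, with Benjamini-Hochberg adjustment over all genes tested, and log2 CPM used a prior count of 2. Libraries are single mice that share no replicate numbers. The study used knockout mice and their wildtype littermates, but the litter of each mouse is not given in the sources used here. No block was therefore fitted, and the tests treat the mice as independent.

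The members and gene lists were chosen with earlier results of these data known, so the lists are described by counts and medians and were given no test. The members were all reported. Of each list, at most 5 called genes with the largest log2 fold change and a mean of at least 1 CPM were named. Some genes are not reported here. Vldlr, Lrp8, Lhx8, Sst, Vip, Dlx5 and Dlx6 were named for their roles after their values were seen. Alternatives were DESeq2 1.42.0, its size factors in place of TMM, no filter or at least 10 counts in every library, the 2 groups compared alone, mouse GSD408 as room air, and each mouse left out in turn. A term for Y-linked expression was added after seeing the data. The code was tested on simulated data. Sequences and positions came from RefSeq tables of GRCm38.p6 and the GRCm38 annotation, while the counts were made on GRCm39, and no coordinates were converted. Counts of Gad1-ps, a pseudogene of Gad1, were 0 to 8.01 per library.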

Additional observations from a re-analysis of the deposited data

Results flagged for a closer look

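Of the 18 sets of 4 WT mice examined for a single distant value (9 genes in WT-RA and WT-O2), 1 had one by Dixon's test. Dlx2 in WT-O2 mouse GSD404 was at 6.05 CPM, below the other mice of its group at 7.85 to 8.21 CPM, and on the log2 scale its gap was 0.853 of the range of the group, past the critical value for 4 samples. Chance alone gives such a value in about 1 in 20 groups.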

How the results depend on the processing

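Slc32a1 was called lower in KO in all 3 genotype comparisons under all alternatives (q at most 0.0449), and the calls of Gad2 and Pvalb over both exposures were kept in all 20 alternatives. The number of the 9 genes called over both exposures was 5, and 3 with GSD408 as room air. It was 3 to 5 with 1 mouse left out, with 3 without GSD401, GSD406, GSD408 or GSD489. In KO-RA against WT-RA it was 5, with 3 when only these groups were fitted and 1 to 5 with 1 mouse left out. In KO-O2 against WT-O2 it was 2, and 1 to 2 with 1 mouse left out. In WT-O2 against WT-RA it was 0, and 1, Reln, with DESeq2 or with the term for Y-linked expression. Values near 0 changed sign. With GSD408 as room air these were Lhx6 over both exposures (-0.023) and the interactions of Gad1 (0.070), Slc32a1 (0.028) and Dlx1 (-0.021), and with the Y-linked term Dlx1 in WT-O2 against WT-RA (-0.033) and the interaction of Erbb4 (0.016). With 1 mouse left out the interactions ranged from -0.059 to 0.12 for Dlx1, -0.11 to 0.047 for Erbb4, -0.16 to 0.11 for Gad1, -0.17 to 0.048 for Gad2 and -0.17 to 0.024 for Slc32a1. Hyperoxia in KO ranged from -0.015 to 0.11 for Dlx1, -0.015 to 0.11 for Erbb4, -0.016 to 0.084 for Lhx6 and -0.12 to 0.020 for Pvalb, and hyperoxia in WT from -0.065 to 0.12 for Dlx1. Lhx6 ranged from -0.049 to 0.071 over both exposures and from -0.010 to 0.23 in room air. Over the whole table, hyperoxia in WT called 107 genes, 304 with DESeq2, 20 when only these groups were fitted, 6 with GSD408 as room air and 13 to 272 with 1 mouse left out. In KO it called 2, and 0 to 13 under the alternatives. KO-O2 against WT-O2 called 1142 genes and 675 without GSD495, and KO-RA against WT-RA 1738 and 1076 without GSD489. The cause of these changes was not tested.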
